A study of Homo sapiens with 12 samples.

Results

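The thioredoxin and peroxiredoxin system was described through 10 genes, TXN, TXN2, TXNRD1, SRXN1 and PRDX1 to PRDX6, which were taken by name from the 43613 genes with linear transcripts in the deposited table. The RNA came from PC3, an established human prostate cancer cell line that the labels give as wild type in every group. The 12 libraries formed 4 groups of 3, namely COM (silver nanoparticles, AgNPs, together with DOC), AgNPs alone, DOC alone, and BLANK, which received PBS. DOC is an abbreviation that the labels do not spell out, and they give no dose, exposure time or batch. They also do not say that the replicates of a group were separate cultures, so the p-values measure the spread between these libraries, which may be technical.

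Depth followed treatment, with summed counts of 10996446 to 11069928 in COM, 13049868 to 13362290 in AgNPs, 18603100 to 19421873 in DOC and 22573481 to 22769479 in BLANK libraries. All 10 genes passed the filter on low counts in the fit of 19986 genes. The PC3 markers KRT8, KRT18, HOXB13 and VIM each had at least 66.4 FPKM (fragments scaled to transcript length and library size) in every library. The PC3 markers EPCAM and CDH1 were lower, EPCAM at 3.99 to 7.37 FPKM and CDH1 at most 0.86. The luminal prostate gene TMPRSS2 and the fibroblast genes DCN and LUM were at or near 0. The 6 PC3 markers summed to 744 to 777 FPKM in COM, 828 to 844 in AgNPs, 781 to 825 in DOC and 875 to 879 in BLANK libraries, and the 6 fibroblast genes, mostly COL1A2, to 15.8 to 18.0, 19.0 to 21.8, 22.5 to 26.0 and 23.3 to 25.5 FPKM in the same groups. The 4 immune genes measured, mostly CD68, summed to 28.4 to 32.6 FPKM in COM, 22.3 to 25.9 in AgNPs, 28.3 to 29 in DOC and 23.6 to 26.1 in BLANK libraries, with the leukocyte gene PTPRC at 0.02 or less, and the 3 endothelial genes to at most 1.93. The part of these differences in the results was not tested. With every library thinned to the smallest total, 23 of the 24 called member results were still called. In bulk RNA, fewer cells of a type and less RNA per cell cannot be told apart.

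Thioredoxins are small proteins that reduce disulfide bonds in other proteins, and thioredoxin reductases, which are selenoproteins, return them to the reduced form at the cost of NADPH. Peroxiredoxins remove hydrogen peroxide and organic peroxides with a reactive cysteine, which thioredoxin reduces again in most members of the family. Under strong peroxide load that cysteine can be over-oxidised, and sulfiredoxin repairs it. TXNRD1, SRXN1, PRDX1 and TXN are widely described as targets of NRF2, a transcription factor that is held down by KEAP1 in unstressed cells.

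The members moved in 2 directions under the nanoparticles. With COM, 4 of the 10 (TXNRD1, SRXN1, PRDX1 and TXN) rose against BLANK and 3 (PRDX4, PRDX3 and PRDX2) fell, while PRDX5, PRDX6 and TXN2 did not pass the test. With AgNPs alone, the same 4 genes rose, PRDX4 and PRDX3 fell, and 4 did not pass. DOC alone left 9 of 10 without a call, and SRXN1 was lower. These shares stand against a broad background, since among all genes tested 25.1% were called higher and 24.5% lower with COM, 14.9% and 16.0% with AgNPs, and 7.16% and 9.81% with DOC. The members called lower, 3 of 10 with COM, 2 with AgNPs and 1 with DOC, were near these shares. The number of falls is therefore not particular to the members. The median log2 fold change of the 10 members was 0.01 for COM, 0.09 for AgNPs and -0.04 for DOC, against 0.03, 0.01 and 0.00 over all genes. The 3 comparisons share the BLANK libraries.

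**Figure D1:**
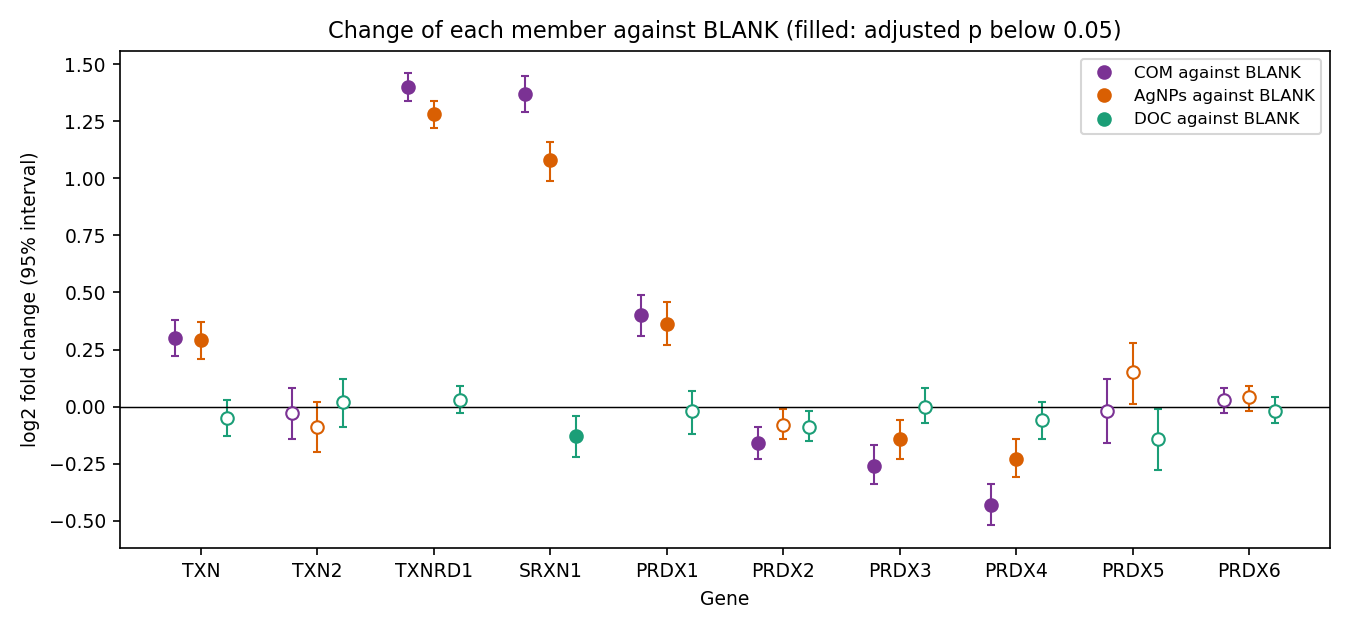
Log2 fold change of each gene against BLANK (vertical axis, with 95% intervals derived from the test statistic) for COM, AgNPs and DOC, 3 libraries per group, with filled points for an adjusted p below 0.05. TXNRD1 and SRXN1 lie above 1 with COM and AgNPs, PRDX2, PRDX3 and PRDX4 lie below 0 with COM, and the DOC points lie between -0.14 and 0.03.

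Cytosolic thioredoxin (TXN, chr9:110243810-110256507 on GRCh38.p14) had 153, 145.5 and 144 normalised counts (CPM, scaled to library size with TMM factors) in COM, 143, 144 and 153 in AgNPs, 123, 115 and 109.5 in DOC, and 116, 121 and 122 in BLANK libraries. Every COM and AgNPs library lay above every DOC and BLANK library. The log2 fold change was 0.30 ± 0.04 (SE) for COM against BLANK (adjusted p = 7.18e-08) and 0.29 ± 0.04 for AgNPs against BLANK (adjusted p = 2.44e-07). COM and AgNPs overlapped, with a difference of 0.01 and a 95% interval of -0.07 to 0.09. Mitochondrial thioredoxin (TXN2, chr22:36467046-36481640), the partner of the mitochondrial peroxiredoxins, averaged 47.0 ± 2.05 CPM in COM, 45.2 ± 1.31 in AgNPs, 48.6 ± 2.93 in DOC and 48.0 ± 2.28 in BLANK (SD, n = 3 each). Each treated group overlapped with BLANK, the AgNPs libraries lay just below the DOC libraries, and TXN2 passed in none of the comparisons, with an interval of -0.14 to 0.08 for COM against BLANK and -0.20 to 0.02 for AgNPs against BLANK.

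Cytosolic thioredoxin reductase (TXNRD1, chr12:104215779-104350307), which recycles TXN, was, with SRXN1, the member with the largest changes. It had 1503, 1483 and 1517 CPM in COM, 1336, 1395 and 1416 in AgNPs, 579, 583 and 584 in DOC, and 546, 596 and 565 in BLANK libraries. The COM and AgNPs libraries did not overlap with each other or with the other groups, while the DOC values fell within the BLANK range. TXNRD1 was 2.64-fold higher with COM (log2 1.40 ± 0.03, adjusted p = 1.48e-30) and 2.43-fold higher with AgNPs (1.28 ± 0.03, adjusted p = 3.72e-29) than in BLANK. DOC alone gave 0.03 ± 0.03, with an interval of -0.03 to 0.09. COM exceeded AgNPs by 0.12 ± 0.03 (adjusted p = 0.00197), a difference called under each alternative run. Non-overlap alone was common, and held for 56.8% of all genes between COM and BLANK, 42.5% between AgNPs and BLANK, 31.5% between DOC and BLANK, 37.0% between COM and AgNPs and 45.2% between COM and DOC.

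The deposited rows divide the TXNRD1 counts by transcript. The transcript NM_182729.2 carried 69.1, 74.7 and 70.3% of the TXNRD1 counts in COM, 77.0, 73.3 and 77.4% in AgNPs, 75.5, 71.4 and 72.6% in DOC, and 74.7, 71.8 and 74.1% in BLANK libraries. The COM, AgNPs and DOC ranges of this row each overlapped with its BLANK range. Smaller rows did not all overlap. NM_001261445.1 carried 4.67, 3.81 and 4.32% in COM against 1.91, 1.84 and 2.89% in BLANK libraries. NM_182743.2 carried 8.53, 11.4 and 8.61% in AgNPs against 12, 13.5 and 12.4% in BLANK libraries. NM_003330.3 overlapped, at 5.88 to 8.15% in COM and 5.88 to 7.26% in BLANK libraries. These shares are estimates and were not tested. GENCODE pairs NM_182729.2 with a model of 15 exons whose first exon is at chr12:104286682-104287109 on the plus strand. The same model is also paired with NM_182742.2 and NM_182743.2, so this pairing cannot fix the start of NM_182729.2. The transcript that begins upstream, NM_001093771.2 with a first exon at chr12:104215779-104215893, was listed at 0 in all COM and AgNPs libraries. Its estimated counts were 42.1, 0 and 50.3 in DOC and 0, 179.5 and 0 in BLANK libraries, at most 1.33% of the TXNRD1 counts of a library.

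NRF2 is known to bind antioxidant response elements, whose core can be written TGACNNNGC. This core was looked for on both strands in RefSeq promoter windows (GRCh38.p14, 250 bases before to 50 after the gene start), which covered 7 of the members in 9 windows, with none for PRDX1, PRDX6 or TXN2. Both TXNRD1 windows held it and the windows of TXN, SRXN1, PRDX2, PRDX3, PRDX4 and PRDX5 did not, against 13.3% of 35116 promoters of the same length. The AP-1 motif TGANTCA, present in 7.71% of those promoters, was in none of the 9. A match is a description of letters and not a binding site. The 3 matches are shown because TXNRD1 is the member with matches and changed strongly, each 5′ to 3′ on the strand given, with the core in capitals.
TXNRD1 upstream start, chr12:104215670-104215698, plus strand: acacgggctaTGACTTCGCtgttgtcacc
TXNRD1 upstream start, chr12:104215761-104215789, minus strand: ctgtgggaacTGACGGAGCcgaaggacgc
TXNRD1 downstream start, chr12:104286920-104286948, minus strand: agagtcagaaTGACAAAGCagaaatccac
The last of these lies inside the first exon of the model paired with NM_182729.2, NM_182742.2 and NM_182743.2 alike. Its window, chr12:104286782-104287081, begins after the start of that model at 104286682. The bases before that start lay in neither window and were not scanned. The upstream window is that of NM_001093771.2, listed at 0 in all COM and AgNPs libraries.

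Sulfiredoxin (SRXN1, chr20:646615-653200), the enzyme that repairs over-oxidised peroxiredoxins, was the only member whose interaction of the agents passed the test. Its CPM were 160.2, 168 and 167 in COM, 135.5, 133 and 136 in AgNPs, 60.7, 60.1 and 54.4 in DOC, and 60.4, 64.8 and 66.6 in BLANK libraries. All COM libraries lay above all AgNPs libraries, and all AgNPs libraries lay above both other groups. SRXN1 was 2.58-fold higher with COM (log2 1.37 ± 0.04, adjusted p = 2.38e-25) and 2.11-fold higher with AgNPs (1.08 ± 0.04, adjusted p = 9.41e-22) than in BLANK. COM exceeded AgNPs by 0.29 ± 0.04 (adjusted p = 1.16e-06). With DOC alone it was 1.10-fold lower (-0.13 ± 0.04, adjusted p = 0.034), although 1 BLANK library lay inside the DOC range. That DOC call rested on single libraries: the value was -0.09 (adjusted p = 0.23) without DOC replicate 3, -0.12 (0.111) without BLANK replicate 2 and -0.10 (0.182) without BLANK replicate 3.

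The interaction compares what DOC did in the presence of AgNPs with what it did in their absence, and was 0.43 ± 0.06 for SRXN1 on the log2 scale (adjusted p = 2.96e-05). Multiplying the AgNPs and DOC effects gives 123 CPM for COM, and 165 CPM were observed, a ratio of 1.34. SRXN1 was the 1 of 10 members called higher for the interaction, where 0.731% of all genes were called higher and 0.375% lower. It was called in each alternative run, with values between 0.38 and 0.47. TXNRD1 had an observed value of 1501 CPM against 1414 from multiplied effects, and its interaction of 0.09 ± 0.04 did not pass (adjusted p = 0.443, interval 0.01 to 0.17). PRDX4 (-0.14, interval -0.27 to -0.02) and PRDX3 (-0.12, interval -0.24 to 0.00) did not pass either, with adjusted p of 0.389 and 0.502. The other members had interactions between -0.02 and 0.06.

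**Figure D2:**
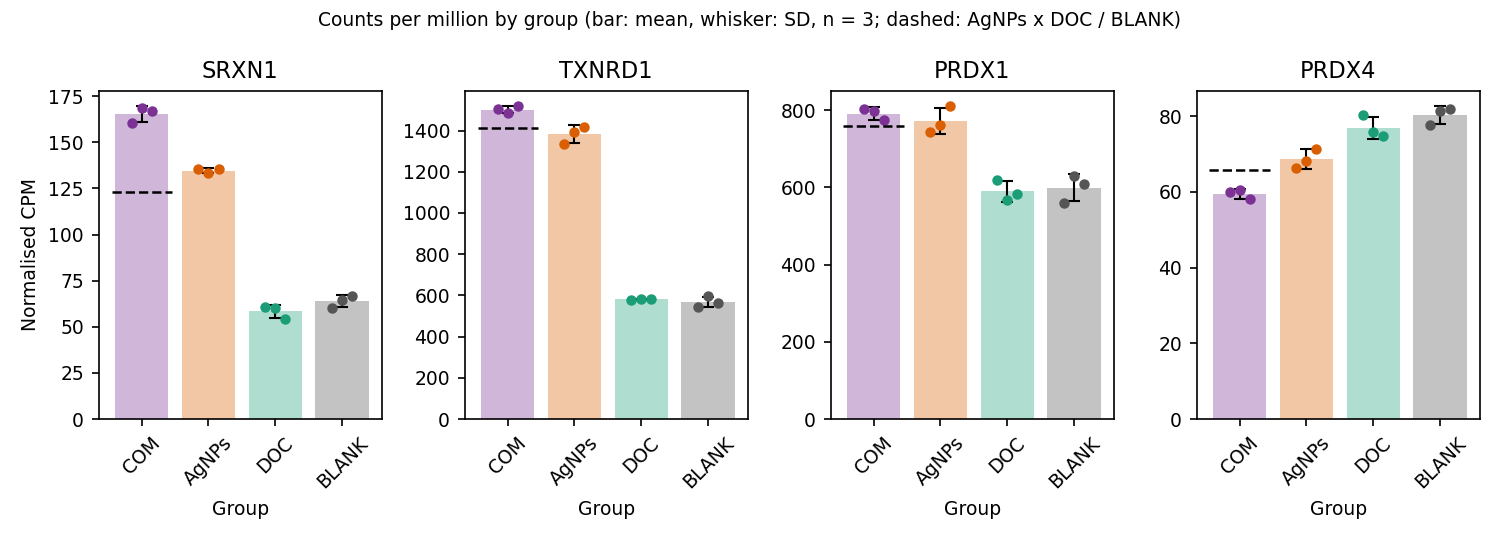
TMM-normalised CPM (vertical axes, from 0) of SRXN1, TXNRD1, PRDX1 and PRDX4 in the COM, AgNPs, DOC and BLANK groups, with bars for means, whiskers for SD (n = 3) and points for libraries. The dashed line is the COM value given by multiplying the AgNPs and DOC effects, and the SRXN1 libraries of COM lie above it, at 160.2 to 168 CPM against 123.

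Against AgNPs, 3 members were called in COM, TXNRD1 and SRXN1 higher and PRDX4 lower, beside 21.9% of all genes called in either direction. Against DOC, COM had 4 higher (TXN, TXNRD1, SRXN1 and PRDX1) and 2 lower (PRDX3 and PRDX4), beside 18.1% and 18.5% of all genes. In the second of these comparisons the log2 fold change was 1.50 ± 0.04 for SRXN1, 1.37 ± 0.03 for TXNRD1, 0.43 ± 0.04 for PRDX1 and 0.35 ± 0.04 for TXN, with a highest adjusted p of 1.30e-06 among the 4.

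PRDX1 (chr1:45511051-45522890), the abundant cytosolic peroxiredoxin, was the member of its family that rose. It had 803, 797 and 773 CPM in COM, 744, 762 and 810.1 in AgNPs, 619.5, 566 and 582 in DOC, and 560.5, 630.1 and 608 in BLANK libraries. The COM and AgNPs libraries lay above all DOC and BLANK libraries and overlapped with each other. The log2 fold change was 0.40 ± 0.04 for COM (adjusted p = 1.53e-06) and 0.36 ± 0.04 for AgNPs (adjusted p = 9.05e-06) against BLANK. DOC alone gave -0.02, with an interval of -0.12 to 0.07.

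PRDX2 (chr19:12796823-12801800), the other main cytosolic peroxiredoxin, went the other way. Its CPM were 240.1, 248 and 229 in COM, 246, 253 and 259.8 in AgNPs, 264, 242 and 247 in DOC, and 269, 262 and 268 in BLANK libraries. COM and AgNPs lay below the BLANK range, and COM overlapped with DOC. The COM change was -0.16 ± 0.03 (adjusted p = 0.000204). AgNPs alone (-0.08 ± 0.03, adjusted p = 0.0828) and DOC alone (-0.09 ± 0.03, adjusted p = 0.0641) did not pass, but both passed without DOC replicate 1, at -0.08 (adjusted p = 0.027) and -0.12 (0.00183). All groups share 1 estimate of the spread, so leaving out a DOC library also affects comparisons without DOC. COM against AgNPs was -0.08 (adjusted p = 0.0987) and became a call without COM replicate 2 (-0.11, 0.0438) or DOC replicate 1 (-0.08, 0.043). COM against DOC was -0.07 (adjusted p = 0.111) and became one without COM replicate 2 (-0.10, 0.0428) or DOC replicate 2 (-0.10, 0.0422).

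PRDX3 (chr10:119167720-119178812), the mitochondrial peroxiredoxin that TXN2 reduces, had 105, 117 and 113 CPM in COM, 114, 119 and 129 in AgNPs, 131, 137 and 134 in DOC, and 130.1, 135 and 135 in BLANK libraries. All COM and AgNPs libraries lay below all DOC and BLANK libraries. The change was -0.26 ± 0.04 for COM (adjusted p = 2.87e-06) and -0.14 ± 0.04 for AgNPs (adjusted p = 0.00512) against BLANK, and 0.00 for DOC with an interval of -0.07 to 0.08. Without AgNPs replicate 1 the AgNPs change was -0.09 and did not pass (adjusted p = 0.124). COM against AgNPs, -0.11 ± 0.04, did not pass (adjusted p = 0.0626) but did without AgNPs replicate 1 (-0.16, 0.0163), COM replicate 2 (-0.15, 0.0252) or DOC replicate 1 (-0.11, 0.0438).

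PRDX4 (chrX:23667493-23686397), the peroxiredoxin of the endoplasmic reticulum and of secretion, had the largest decrease among the members. It had 60.0, 60.5 and 58.0 CPM in COM, 66.2, 68.2 and 71.4 in AgNPs, 80.3, 75.9 and 74.8 in DOC, and 77.6, 81.3 and 82.0 in BLANK libraries. COM lay below AgNPs and AgNPs below both other groups, with no overlap. The change against BLANK was -0.43 ± 0.04 for COM (1.35-fold lower, adjusted p = 2.72e-10) and -0.23 ± 0.04 for AgNPs (1.17-fold lower, adjusted p = 5e-05). COM against AgNPs gave -0.20 ± 0.05 (adjusted p = 0.00172), and DOC alone gave -0.06 with an interval of -0.14 to 0.02.

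PRDX5 (chr11:64318121-64321811), an atypical peroxiredoxin found in several compartments, passed in no comparison. It had 103.5, 97.3 and 102.5 CPM in COM, 114, 115 and 112 in AgNPs, 104, 89.8 and 84.0 in DOC, and 99.8, 98.6 and 109 in BLANK libraries. AgNPs lay above all other libraries, and DOC replicate 1 stood apart from the other DOC libraries. This was not particular to PRDX5. Over all genes with enough counts, chi-square per degree of freedom was 4.43 and 4.76 between DOC replicate 1 and replicates 2 and 3. Between DOC replicates 2 and 3 it was 1.71. BLANK replicate 1 had 3.7 and 3.45 against the others, and BLANK replicates 2 and 3 had 1.83. Its change was 0.15 ± 0.06 for AgNPs (adjusted p = 0.101) and -0.14 ± 0.06 for DOC (adjusted p = 0.138) against BLANK, -0.17 ± 0.07 for COM against AgNPs (adjusted p = 0.109) and 0.13 ± 0.07 for COM against DOC (adjusted p = 0.172). Without DOC replicate 1 each became a call, at 0.15 (adjusted p = 0.00113), -0.24 (1.78e-05), -0.16 (0.00185) and 0.22 (6.4e-05). AgNPs against BLANK and COM against AgNPs hold no DOC library, but all groups share 1 estimate of the spread. Fitted with only the groups compared, both were called (0.15, adjusted p = 0.00252, and -0.16, 0.000484). The AgNPs change also passed without DOC replicate 3 (0.15, 0.0126) or BLANK replicate 3 (0.19, 0.0333), and COM against AgNPs passed without DOC replicate 3 (-0.17, 0.0123). PRDX5 overlaps TRMT112 in the annotation, which reached 88.5 CPM, and the strand used in counting was not given in the sources used here.

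PRDX6 (chr1:173477335-173488815), the peroxiredoxin with a single catalytic cysteine, which uses glutathione in place of thioredoxin, averaged 623 ± 12.6 CPM in COM, 626 ± 13.7 in AgNPs, 603 ± 10.8 in DOC and 611 ± 12.5 in BLANK (SD, n = 3 each). Its groups overlapped with BLANK throughout. The change was 0.03 (interval -0.03 to 0.08) for COM, 0.04 (-0.02 to 0.09) for AgNPs and -0.02 (-0.07 to 0.04) for DOC against BLANK, the narrowest set of intervals around 0 among the members with no call.

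Per length, PRDX1 was the member with the highest level in all 4 groups, at 843 ± 15.6 FPKM in COM, 825 ± 40.4 in AgNPs, 631 ± 24.3 in DOC and 638 ± 38.6 in BLANK (SD, n = 3 each). PRDX6 came second in each, at 382 to 395 FPKM. TXNRD1 was the third in COM (387 ± 4.21 FPKM) and AgNPs (356 ± 11.2), the fourth in DOC (151 ± 0.928) and the fifth in BLANK (145.5 ± 7.28). Its range overlapped that of PRDX6 in COM, that of TXN in DOC, and those of TXN and PRDX5 in BLANK, so these neighbours in the order do not differ beyond their spread. PRDX2 averaged 251 to 279 FPKM, TXN 149 to 189.5 and PRDX5 122 to 147 across the groups. PRDX3 and PRDX4 were between 71.0 and 95.7 FPKM and overlapped in COM and AgNPs. SRXN1, at 63.0 ± 1.58 FPKM in COM and 51.5 ± 0.645 in AgNPs, stood above TXN2 in both groups. In DOC (22.5 ± 1.27) and BLANK (24.2 ± 1.27) it was the lowest member, below TXN2 at 39.0 ± 2.36 and 38.1 ± 1.80 FPKM.

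**Figure D3:**
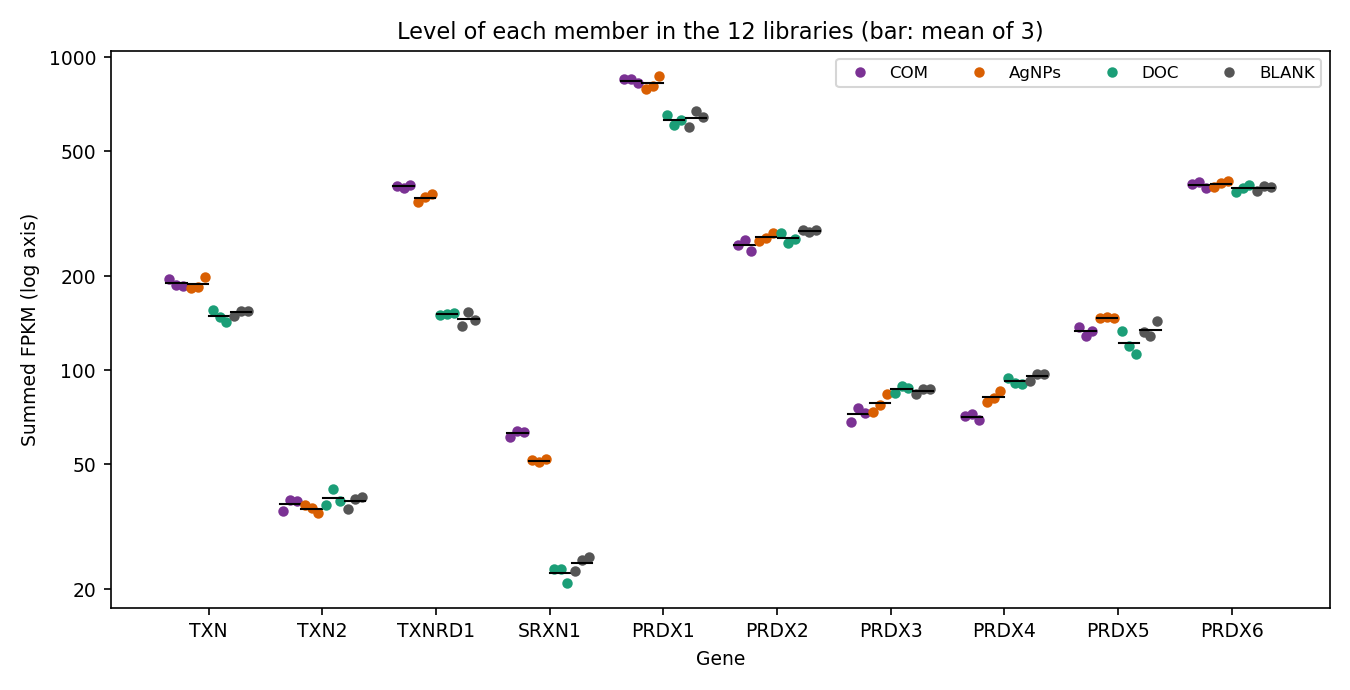
Summed FPKM of each gene (log axis) in every library of COM, AgNPs, DOC and BLANK, with bars for the mean of 3 libraries. PRDX1 is at the top in all groups, TXNRD1 moves to the level of PRDX6 in COM (387 against 392 FPKM), and SRXN1 crosses TXN2.

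The balance between enzyme and substrate transcripts within a library shifted with these changes. The FPKM ratio of TXNRD1 to TXN was 2.04 ± 0.061 in COM, 1.89 ± 0.052 in AgNPs, 1.02 ± 0.052 in DOC and 0.951 ± 0.032 in BLANK (SD, n = 3 each). For SRXN1 to PRDX1 it was 0.0748 ± 0.0028 in COM, 0.0624 ± 0.0027 in AgNPs, 0.0356 ± 0.0024 in DOC and 0.0380 ± 0.0013 in BLANK. PRDX1 to PRDX2 stood at 3.36 ± 0.088 in COM, 3.10 ± 0.057 in AgNPs, 2.39 ± 0.008 in DOC and 2.29 ± 0.16 in BLANK. For all 3 ratios the COM and AgNPs libraries lay above all DOC and BLANK libraries. These ratios are restatements of the levels above, with no test of their own. The 6 peroxiredoxins summed to 1724 to 1785 FPKM in COM, 1736 to 1866 in AgNPs, 1544 to 1614 in DOC and 1561 to 1652 in BLANK libraries, with PRDX1 and PRDX6 supplying most of each sum.

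PRDX1 counts were divided differently between its transcripts. The row NM_001202431.1 carried 14.9, 14.7 and 16.3% of PRDX1 counts in COM, 14.6, 12.7 and 12.2% in AgNPs, 6.25, 7.42 and 6.05% in DOC, and 6.43, 6.63 and 5.74% in BLANK libraries. Every COM and AgNPs library had a higher share than every DOC and BLANK library. How often transcript shares of other genes separate in this way was not counted. The main row, NM_181697.2, carried a mean of 81.1% in COM, 83.3% in AgNPs, 90.5% in DOC and 90.8% in BLANK. In FPKM, NM_001202431.1 stood at 127, 126 and 135 in COM, 116, 104 and 106 in AgNPs, 41.0, 45.2 and 38.2 in DOC, and 38.5, 44.8 and 37.0 in BLANK libraries. GENCODE gives the first exon of the model paired with NM_001202431.1 as chr1:45521609-45521938 and that of the model paired with NM_181697.2 as chr1:45521829-45521956, both on the minus strand. The former model is also paired with NM_002574.3 and NM_181696.2, so this pairing cannot show a change of first exon. NM_002574.3 carried a mean of 2.54% in COM and 2.01% in BLANK, and NM_181696.2 0.934% and 0.807%. Transcript counts are estimates divided between rows that share most of their sequence, and with 3 libraries against 3 an exact permutation test cannot go below p = 0.1, so the shares were not tested.

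**Figure D4:**
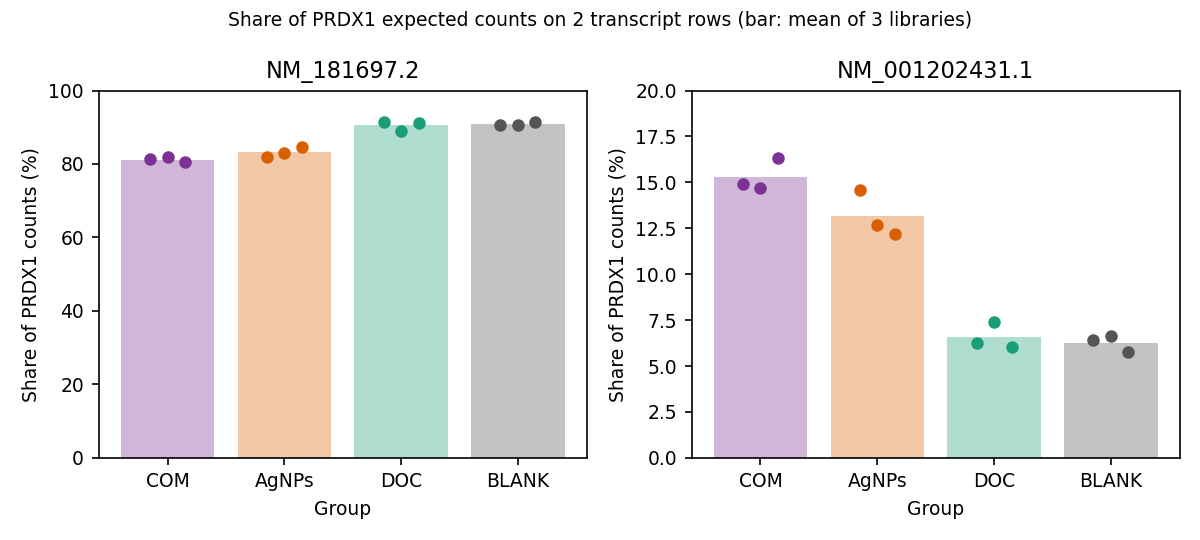
Share of PRDX1 expected counts (%, vertical axes from 0 with different upper ends) on the rows NM_181697.2 and NM_001202431.1 in COM, AgNPs, DOC and BLANK, with bars for means and points for the 3 libraries. The share on NM_001202431.1 is 12.2 to 16.3% in COM and AgNPs libraries and 5.74 to 7.42% in DOC and BLANK libraries.

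Most other members were counted on a single transcript. The main row of PRDX2, PRDX3, PRDX4, PRDX6 and SRXN1 held at least 97.0% of the gene's counts in every library. TXN had 95.1 to 95.8% of its counts on NM_003329.3 in COM, against 97.5 to 98.1% in BLANK libraries. PRDX5 and TXN2 had several rows above 5%, and the shares of their main rows in each treated group overlapped with those in BLANK.

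Genes were ranked by the root mean square difference between their 3 log2 fold changes against BLANK and those of a member, over 12128 genes, as a description in which all 3 values share the BLANK libraries. Nearest to TXNRD1 were ABCC2 (0.061), PCK2 (0.068), PELI2 (0.075), ABCC3 (0.088) and FTL (0.098). For SRXN1 they were LOC101927088 (0.103), HERPUD1 (0.106), SLC48A1 (0.109), NQO1 (0.111) and PCK2 (0.113). Those nearest to PRDX1 were DNASE2 (0.007), ENDOV (0.012), SHC1 (0.014), GIHCG (0.015) and GOLGA6L9 (0.015).

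The other genes of the thioredoxin system were divided. Of 18 tested, 5 rose and 7 fell with COM against BLANK, and 5 rose and 6 fell with AgNPs, with median log2 fold changes of -0.07 and -0.03. Over all genes, 25.1% were called higher and 24.5% lower with COM, and 14.9% and 16.0% with AgNPs. List counts near these shares are not particular to a list. TXNIP, which binds and inhibits thioredoxin, rose by 0.49 ± 0.04 with COM (adjusted p = 1.82e-13), 0.37 ± 0.04 with AgNPs (4.17e-10) and 0.18 ± 0.04 with DOC (0.000789). TXNL1, a cytosolic thioredoxin-like protein, was higher by 0.42 ± 0.05 with COM and 0.26 ± 0.05 with AgNPs (adjusted p = 9.39e-10 and 1.69e-05). TXNDC5, a thioredoxin-fold protein of the endoplasmic reticulum, had changes of -0.46 ± 0.03 with COM, -0.33 ± 0.03 with AgNPs and -0.14 ± 0.03 with DOC (adjusted p = 1.7e-15, 1.87e-11 and 0.000768). TXNRD2, the mitochondrial reductase, chosen for mention after its values were seen, averaged 7.41 ± 0.68 FPKM in COM, 7.99 ± 0.40 in AgNPs, 7.61 ± 0.63 in DOC and 8.13 ± 0.078 in BLANK (SD, n = 3 each) and passed in no comparison. TXNRD3, chosen likewise, was called lower with COM (-0.49 ± 0.15, adjusted p = 0.00713) and AgNPs (-0.37 ± 0.14, adjusted p = 0.0439) against BLANK. TXNRD3 was low throughout, at 1.23 ± 0.15 FPKM in COM and 1.73 ± 0.095 in BLANK.

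Against BLANK, 4 of 9 tested clients of thioredoxin fell and 5 did not pass with COM. With AgNPs 3 rose and 3 fell, and with DOC alone 3 fell and 6 did not pass. Over all genes the shares called higher and lower were 25.1% and 24.5% with COM, and 14.9% and 16.0% with AgNPs. With DOC they were 7.16% and 9.81%. The clients that rose with AgNPs were RRM2B (0.25 ± 0.07, adjusted p = 0.00611), MSRA (0.27 ± 0.10, 0.0406) and MSRB3 (0.18 ± 0.06, 0.0311). Among other settings, MSRA was lost without AgNPs replicate 2 (0.23, adjusted p = 0.152) and MSRB3 without AgNPs replicate 3 (0.13, 0.209). RRM2, a subunit of ribonucleotide reductase, fell by 0.45 with COM (log2, SE 0.03, adjusted p = 2.78e-14) and by 0.20 with AgNPs (SE 0.03, adjusted p = 2.9e-06). RRM2 was also lower with DOC alone (-0.15 ± 0.03, adjusted p = 0.000413). MAP3K5, the kinase ASK1 that reduced thioredoxin holds inactive, fell by 0.63 with COM (SE 0.07, adjusted p = 3.61e-10) and by 0.27 with AgNPs (SE 0.06, adjusted p = 0.000503). With DOC alone MAP3K5 was lower by a like amount (-0.26 ± 0.06, adjusted p = 0.0014). That DOC call was lost with limma on log2(FPKM + 1) (-0.16, adjusted p = 0.34). The parallel glutathione arm had 5 tested genes, of which 2 rose and 2 fell with both COM and AgNPs. Glutathione reductase (GSR) rose by 0.54 ± 0.04 with each (adjusted p = 1.81e-14 with COM and 2.71e-14 with AgNPs), and the iron-sulfur cluster glutaredoxin GLRX5 fell by 0.56 with COM (SE 0.04, adjusted p = 2.63e-13) and by 0.35 with AgNPs (SE 0.04, adjusted p = 1.86e-08). Glutaredoxin GLRX rose by 0.68 ± 0.08 with COM and 0.36 ± 0.08 with AgNPs (adjusted p = 1.6e-09 and 0.000339).

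Glutathione peroxidases, which include further selenoproteins, changed in both directions. Of 8 other peroxide and superoxide enzymes tested, 2 rose and 3 fell with COM, and likewise with AgNPs, while 3 fell with DOC. Over all genes, 25.1% were called higher and 24.5% lower with COM, and 14.9% and 16.0% with AgNPs. With DOC the shares were 7.16% and 9.81%. The same shares stand beside the selenocysteine genes that follow. GPX1, the cytosolic glutathione peroxidase, fell by 1.58 with COM (log2, SE 0.04, adjusted p = 1.76e-29) and by 1.46 with AgNPs (SE 0.03, adjusted p = 1.05e-28). GPX4, which reduces lipid peroxides, fell by 0.41 with COM (SE 0.04, adjusted p = 9.66e-11) and by 0.29 with AgNPs (SE 0.04, adjusted p = 2.17e-07). With DOC alone GPX1 (-0.13 ± 0.03, adjusted p = 0.00149) and GPX4 (-0.16 ± 0.04, adjusted p = 0.0015) were also lower. GPX2 had 26, 33 and 24 counts in COM, 10, 14 and 16 in AgNPs, and 0 in every DOC and BLANK library. Of 8 tested genes of the selenocysteine machinery, 1 rose and 3 fell with COM, and 1 rose and 1 fell with AgNPs. SEPHS2, which makes the selenium donor, rose by 0.62 ± 0.04 with COM and 0.60 ± 0.04 with AgNPs (adjusted p = 6.26e-15 and 1.6e-14). SEPHS1 fell by 0.30 with COM (SE 0.06, adjusted p = 9.98e-05) and by 0.18 with AgNPs (SE 0.06, adjusted p = 0.0147), a call lost without AgNPs replicate 1 (-0.09, adjusted p = 0.299) or BLANK replicate 2 (-0.16, 0.0674).

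NRF2 itself (NFE2L2) rose by 0.77 ± 0.04 with COM (adjusted p = 4.9e-19) and 0.55 ± 0.04 with AgNPs (adjusted p = 1.5e-14) against BLANK, and had 0.09 ± 0.04 with DOC (adjusted p = 0.0814). KEAP1 had -0.05 ± 0.05 with COM (adjusted p = 0.369), rose by 0.16 ± 0.05 with AgNPs (adjusted p = 0.0086) and fell by 0.26 with DOC (SE 0.04, adjusted p = 0.000183). The AgNPs call of KEAP1 was lost without AgNPs replicate 3 (0.12, adjusted p = 0.0601) or BLANK replicate 1 (0.13, 0.0501), and NFE2L2 became a call with DOC without BLANK replicate 1 (0.12, 0.0434). Of 23 other NRF2 targets tested, 21 rose with COM and 23 with AgNPs, with median log2 fold changes of 1.40 and 1.15, while 5 rose and 1 fell with DOC (median 0.05). These were described by counts and medians beside the background shares above, with no test of the list. HMOX1, heme oxygenase, reached 5.87 ± 0.04 with COM and 5.34 ± 0.04 with AgNPs (adjusted p = 5.12e-46 and 1.37e-44), far beyond TXNRD1 and SRXN1. The interaction passed for 4 of the 23 (2 without COM replicate 2 or without AgNPs replicate 2, and 0 with limma on log2 FPKM), among them GCLM, a subunit of the enzyme that starts glutathione synthesis (0.34 ± 0.06, adjusted p = 0.00247), and SQSTM1, a selective autophagy receptor (0.26 ± 0.04, adjusted p = 0.000328), beside the 0.43 of SRXN1.

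Several limits bear on the member values. The gene models overlap with EID3 in TXNRD1 (at most 36.5 CPM), MMACHC in PRDX1 (at most 25.7 CPM) and LOC107985423 in SRXN1 (at most 2.62 CPM). Pseudogenes of most members are annotated but had no linear rows of their own in the deposited data. Reads from near-identical copies could therefore have been counted on the members.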

How the data were processed

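The authors deposited a table of 221796 transcript rows, 177700 of them linear, with expected counts that need not be whole and a second value per library. Per the submitters' processing notes, HISAT2, Bowtie2 2.2.5, RSEM and GRCh38 were used, with no role stated. Per the labels' protocols, total RNA was extracted with TRIzol and libraries were made with a BGI mRNA kit. The second deposited value was read as FPKM from its behaviour, since the header names no unit. FPKM estimates were summed per gene for levels.

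Expected counts of linear rows were summed per gene identifier and rounded, giving 43613 genes, 27206 with a symbol. Positions are from RefSeq on GRCh38.p14. The test was edgeR's two-sided quasi-likelihood test (edgeR 4.0.16, R 4.3.3, TMM, filterByExpr, 1 robust fit over 12 libraries). It kept 19986 genes, and the common biological coefficient of variation was 0.0334. Calls used 0.05 as the limit for p adjusted by Benjamini-Hochberg over the whole table. Intervals cover 95%. Depth ranged from 10996446 to 22769479 counts, so that 3 counts correspond to 0.273 and 0.132 CPM, a limit that covers counting error only. Code was tested on simulated data.

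Named genes were all 10 members in every comparison, of each related list up to 3 called genes each way with the smallest adjusted p for AgNPs against BLANK and up to 2 each way elsewhere, NFE2L2 and KEAP1, and the 5 genes nearest to TXNRD1, SRXN1 and PRDX1. Of these, those closest to the members' roles were printed. The members and lists were chosen with earlier results of these data known. Alternatives were 11 settings (among them DESeq2 1.42.0 and limma 3.58.1 on log2 FPKM) and leaving out each of 12 libraries in turn.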

Additional observations from a re-analysis of the deposited data

Results flagged for a closer look

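SRXN1 was picked out because the effect of DOC on it differed with and without AgNPs, by a tested difference of 0.43 on the log2 scale (SE 0.06, adjusted p = 2.96e-05 by edgeR's quasi-likelihood test). All 3 COM libraries lay above all 3 AgNPs libraries, at 160.2 to 168 against 133 to 136 CPM, whereas the DOC and BLANK libraries overlapped, at 54.4 to 60.7 against 60.4 to 66.6 CPM. Total counts were lower in COM than in AgNPs libraries and lower in DOC than in BLANK libraries. With all libraries thinned to the smallest total the interaction was still called, as it was in the other alternatives.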

How the results depend on the processing

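Of 24 called member results, 22 were called in the same direction under every alternative and none changed sign. The exceptions were PRDX3, AgNPs against BLANK (adjusted p = 0.0676 and 0.0672 with limma on log2(FPKM + 1) and log2(FPKM + 0.1), 0.124 without AgNPs replicate 1) and SRXN1, DOC against BLANK (0.103 with library totals alone, 0.0827 with RefSeq rows, 0.159 thinned, 0.0952 with only the groups compared, 0.203 and 0.199 with limma). The cause was not tested.

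Members called lower numbered 1 for AgNPs against BLANK with either limma setting. For DOC against BLANK they numbered 2 with RLE factors or DESeq2, 3 with no filter, and 0 with library totals, RefSeq rows, thinning, only the groups compared or either limma setting. For COM against AgNPs, with 1 as reported, they numbered 4 with no filter or only the groups compared, and 2 with thinning or DESeq2. The replicate numbers did not pair the libraries (2 of 18 same-number pairs correlated above 0.1, from -0.20 to 0.17). With replicate number as a block, COM against AgNPs had 2 members lower. Leaving out 1 library gave 1 to 3 members lower for AgNPs against BLANK, 0 to 3 for DOC against BLANK and 1 to 4 for COM against AgNPs. Ordered by CPM, which ignores length, 3 members kept their place in COM, 3 in AgNPs, 0 in DOC and 0 in BLANK.

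Signs turned in 14 uncalled results. Under single settings these were TXN, COM against AgNPs (-0.02, -0.01), TXN2 (DOC 0.00, -0.01; COM 0.00; interaction -0.01), PRDX1 (DOC 0.00), PRDX2 (interaction 0.00, -0.02), PRDX3 (DOC 0.00, -0.01, -0.02), PRDX5 (COM 0.01, 0.02; interaction 0.00) and PRDX6 (DOC 0.00, 0.01; COM 0.00, -0.02; COM against AgNPs 0.02; interaction -0.01, -0.02). With 1 library left out, ranges against BLANK were -0.07 to 0.01 (PRDX1, DOC), -0.01 to 0.02 (PRDX3, DOC), -0.04 to 0.05 (TXN2, DOC), -0.04 to 0.03 (PRDX5, COM) and -0.07 to 0.00 (TXN2, COM). COM against AgNPs ran from -0.02 to 0.04 (TXN) and -0.03 to 0.01 (PRDX6), and COM against DOC from -0.08 to 0.00 (TXN2). Interactions ran from -0.02 to 0.04 (PRDX2), -0.09 to 0.07 (PRDX5) and -0.01 to 0.03 (PRDX6).

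Over the alternatives, the other thioredoxin genes called lower with AgNPs numbered 3 to 7 (6 as reported), the clients called higher 1 to 3 (3), and the glutaredoxins called lower 1 to 2 (2). The peroxide enzymes called higher with COM numbered 1 to 3 (2), and the selenocysteine genes called lower with AgNPs 0 to 1 (1). Other NRF2 targets called lower with DOC numbered 0 to 2 (1), and those called for the interaction 0 to 4 (4). With limma on log2(FPKM + 1), the AgNPs calls of KEAP1, MAP3K5 and SEPHS1 were lost (adjusted p = 0.0649, 0.083 and 0.0593), as were the interactions of GCLM and SQSTM1 (0.169 and 0.0618), all 5 likewise with log2(FPKM + 0.1). Of 36 uncalled results, 9 became calls under some alternative, all of PRDX2, PRDX3 or PRDX5. Member changes whose 95% interval holds 0 cannot be told from 0 with 3 libraries a group. An interval without 0 did not always pass after adjustment.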
